A study of Mus musculus with 6 samples.

Results

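The genes described here make and burn fatty acids in activated T cells. They are 40 genes of the pathway, taken by symbol from a gene table of 52550 rows whose Ensembl identifiers were matched without their version, and all 40 were found. By role, 13 build, elongate or desaturate fatty acids (synthesis), 6 attach coenzyme A to a fatty acid or to acetate (activation), 19 carry fatty acids into mitochondria or oxidise them there and in peroxisomes (oxidation), and 2 bind or take up fatty acids (uptake). CD3+ T cells of the mouse spleen, labelled WT and without a strain, were activated with antibodies to CD3 and CD28 for 24 h, so both groups carried this stimulus. The TCR alone group had 3 samples and no further agent, and the TCR+DMGV group had 3 samples with DMGV (dimethylguanidino valeric acid) at 100 ng/ml. The study's text and supplementary legend instead name the added agent LNY1, a factor purified from fibroblast medium, and the legend gives the same dose and time. The study takes LNY1 to be asymmetric and symmetric dimethylarginine, which it reports cells turn into DMGV through the enzyme AGXT2. LNY1 and DMGV are thus different compounds, and the sources do not settle which was added. The label's name is used here. The study's methods give mice of both sexes aged 6 to 8 weeks and name the samples independent biological ones. Cells of the whole CD3+ pool were lysed together, so fewer cells of a type and less RNA per cell cannot be told apart.

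Fatty acid synthesis starts in the cytosol, where ATP citrate lyase (Acly) turns citrate into acetyl-CoA, acetyl-CoA carboxylase (Acaca) makes malonyl-CoA, and fatty acid synthase (Fasn) joins these units into palmitate. Elongases (Elovl genes) lengthen the chain, stearoyl-CoA desaturases (Scd1, Scd2) add the first double bond, and Fads1 and Fads2 add further double bonds to polyunsaturated chains. Acyl-CoA synthetases (Acsl genes) activate the free acid, and the carnitine shuttle (Cpt1a, Slc25a20, Cpt2) brings it into the mitochondrion for beta-oxidation. T cells that leave rest for growth are known for switching on synthesis, while long-lived memory and regulatory cells are known for relying more on oxidation.

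Between 37758725 and 43718867 reads were counted per sample. On the first principal component of all tested genes, which held 32.2% of the variance, TCR alone replicate 3 and TCR+DMGV replicate 1 lay at 42.1 and 42.9 and the other 4 samples between -34.9 and -10.5, so these libraries stood apart whatever their group. Their counts also followed the GC content of the transcript, with slopes of 0.23 and 0.16 on the log2 scale per 10 points of GC against -0.15 to -0.03 in the others. Values without this pair of libraries, chosen after seeing the data, are given beside the results that they moved most, and together in a later paragraph. Without the pair, GC slopes were -0.15 in TCR alone replicates 1 and 2, and -0.05 and -0.03 in TCR+DMGV replicates 2 and 3. The groups then differed in GC slope, so values without the pair are not free of the GC trend. All 13 T cell markers were above 1 CPM (counts scaled to library size after TMM normalization) in every sample, and their summed level was 3895 to 4188 CPM in TCR alone and 4154 to 4390 CPM in TCR+DMGV. Of these markers, 12 had a higher mean in TCR+DMGV, 3 of them without overlap, where 4.92% of all genes tested were higher without overlap. At an unadjusted p under 0.05 in edgeR there were 0, and the median log2 fold change of the 13 was 0.10. All 6 neutrophil markers and all 6 fat cell markers were at 0 counts in every sample. The summed levels of B cell, macrophage and monocyte, dendritic cell, NK cell, erythroid and platelet markers were at most 11.6 CPM each, and the erythroid sum was 3.72 to 4.93 CPM in TCR alone and 1.75 to 3.72 CPM in TCR+DMGV. The 10 activated T cell markers were mixed, with 6 higher and 4 lower in TCR+DMGV and a median log2 fold change of 0.09. Their summed level was 3276 to 3823 CPM in TCR alone and 3382 to 3779 CPM in TCR+DMGV. Of these 10, 1 was at an unadjusted p under 0.05 in edgeR. It was Nr4a1, an early gene of T cell receptor signalling, with 208 to 245 CPM in TCR alone and 261 to 302 CPM in TCR+DMGV. The other single markers at that p were the NK cell receptor gene Klre1 (0.132 to 0.564 against 0.836 to 1.19 CPM) and the globin gene Hba-a2 (0.956 to 1.29 against 0.315 to 0.757 CPM). Without the pair of libraries that stood apart, the unadjusted p in edgeR was 0.00482 for Nr4a1, 0.0891 for Klre1 and 0.122 for Hba-a2. In that fit, 2 of the 13 T cell markers and 2 of the 10 activated T cell markers (Nr4a1 among them) were at an unadjusted p under 0.05. Of all genes, 6.53% were. The part of the T cell and other markers in the results below was not tested.

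In activated T cells the synthesis genes were among the most abundant of the pathway (FPKM, fragments scaled by transcript length and depth, which compares genes per length). Acly had the highest level, from 112 to 128 FPKM over the 6 samples. Scd2 had 95.9 to 127 FPKM and Fasn 88.4 to 109 FPKM, and since the ranges of these 3 genes overlapped, their order was within the spread between samples. Acsl5, which activates long-chain acids, came next with 61.3 to 70.1 FPKM and did not overlap with them. The electron carriers Etfa and Etfb, which pass electrons from acyl-CoA dehydrogenases to the respiratory chain, had 36.6 to 41.1 and 30.9 to 38.2 FPKM and were the highest of the oxidation genes. The lowest were Elovl7, an elongase, at 0.313 to 0.548 FPKM, Acacb, the mitochondrial acetyl-CoA carboxylase, at 0.0495 to 0.121 FPKM, and Cd36, a fatty acid transporter, at 0 to 0.0889 FPKM. Of the paired enzymes, Scd2 was far above Scd1 (6.08 FPKM on average) and Acaca (18.6 FPKM) far above Acacb. With TPM (length-scaled counts as parts of a fixed sum) rebuilt from transcript counts and annotated transcript lengths, an alternative chosen after seeing the data, Acly, Fasn and Scd2 were again the first 3, but Fabp5, a cytosolic fatty acid carrier, was 4th at 195 TPM where FPKM placed it 10th. The order below the first 3 thus depended on the length used.

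**Figure D1:**
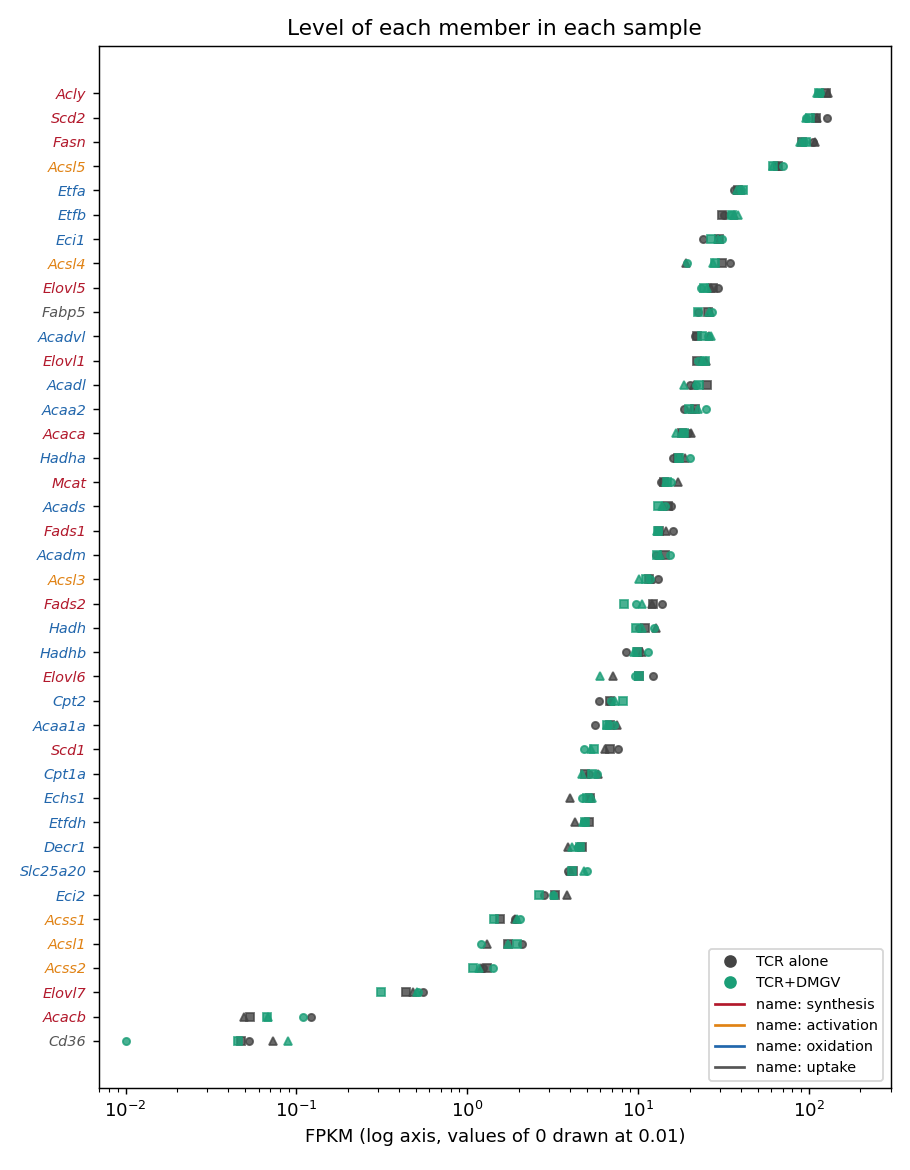
Level of each of the 40 genes in each sample, in FPKM on a log axis, with grey points for the 3 TCR alone samples and green points for the 3 TCR+DMGV samples (replicates 1, 2 and 3 as circle, square and triangle). Acly, Scd2 and Fasn lie near 100 FPKM, while Acacb and Cd36 lie at about 0.1 or below, and the groups overlap for most genes.

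Of the 40 genes, 39 passed edgeR's filter on low counts. The exception was Cd36, for which TCR alone samples held 9, 9 and 12 reads and TCR+DMGV samples 0, 9 and 15, so few that no comparison was made. In edgeR's quasi-likelihood test over 14786 genes, 0 of the 39 passed an adjusted p of 0.05 (Benjamini-Hochberg, adjusted p 0.999 for each), where 0.0135% of all genes tested passed. Without adjustment, 3 genes had a p under 0.05, where 3.19% of all genes tested did, and all 3 were lower in TCR+DMGV (of all genes tested, 1.56% were lower and 1.63% higher at that p). DESeq2 gave 0 genes at an adjusted p under 0.05 and 3 at an unadjusted p under 0.05, and limma on log2(FPKM + 1) gave 0 and 4. The groups did not overlap in CPM for 6 genes, all lower in TCR+DMGV, where 8.86% of all genes tested did not overlap, 3.94% with TCR+DMGV lower and 4.92% with it higher. An exact permutation test of 1 gene cannot go below 0.1 in groups of 3, so the p-values below rest on edgeR's model and measure the spread between these samples. The labels name no batch.

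The 3 genes at an unadjusted p under 0.05 were Scd1, Scd2 and Fads2, which all encode desaturases. Scd1 (ENSMUSG00000037071.2), which places the first double bond in stearate and palmitate, had 41.0, 37.9 and 33.9 CPM in TCR alone and 25.8, 30.4 and 29.6 CPM in TCR+DMGV. Every TCR+DMGV sample lay below every TCR alone sample. The log2 fold change was -0.39 (standard error 0.11, 95% interval -0.66 to -0.13, unadjusted p = 0.00950, adjusted p = 0.999, edgeR), a level 23.9% lower (-23.9%, interval -36.7% to -8.60%). It stayed at an unadjusted p under 0.05 in all 18 analyses run, between 0.00376 and 0.0336. No analysis brought it past the adjusted threshold, and the lowest adjusted p over them was 0.649.

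Scd2 (ENSMUSG00000025203.5), the other stearoyl-CoA desaturase among the members, had 769.6, 689.5 and 667 CPM in TCR alone and 577, 635 and 604 CPM in TCR+DMGV. Its groups also did not overlap, and TCR alone replicate 1 stood highest. The log2 fold change was -0.23 (standard error 0.08, 95% interval -0.42 to -0.04, unadjusted p = 0.0248, edgeR). The unadjusted p was 0.0859 without TCR+DMGV replicate 1 and 0.0665 without TCR+DMGV replicate 3, with log2 fold changes of -0.20 and -0.23. The 2 genes are near copies, and the authors' counting could have split reads between them. Scd2 held 29230 counts against 1556 for Scd1 in TCR alone replicate 1, and how many reads could belong to either was not tested. Scd3 had 0 counts in all samples and Scd4 had 4 to 39.

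Fads2 (ENSMUSG00000024665.7), the delta-6 desaturase that starts the making of long polyunsaturated chains, had 23.3, 21.1 and 19.9 CPM in TCR alone and 16.2, 14.3 and 18.2 CPM in TCR+DMGV. The highest TCR+DMGV sample lay below the lowest TCR alone sample. The log2 fold change was -0.40 (standard error 0.13, 95% interval -0.70 to -0.10, unadjusted p = 0.0151, edgeR), a level 24.3% lower (-24.3%). Without TCR+DMGV replicate 2 it was -0.32 with an unadjusted p of 0.0541.

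Its neighbour Fads1 (ENSMUSG00000010663.4), the delta-5 desaturase of the same route, had 61.3, 52.1 and 55.1 CPM in TCR alone and 49.8, 51.6 and 51.2 CPM in TCR+DMGV. The groups were separate by a narrow margin, and the log2 fold change was -0.14 (standard error 0.09, 95% interval -0.36 to 0.07, unadjusted p = 0.165, edgeR). The 4 desaturase genes among the members lie on chromosome 19 in 2 places (GENCODE M21, GRCm38). Fads2 (10062765 to 10101746, reverse strand) and Fads1 (10182888 to 10196877, forward strand) are neighbours, and so are Scd2 (44293674 to 44306864, forward strand) and Scd1 (44394455 to 44407879, reverse strand). Acsl5 and Cpt1a are on the same chromosome, and their log2 fold changes were -0.02 and 0.01.

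**Figure D2:**
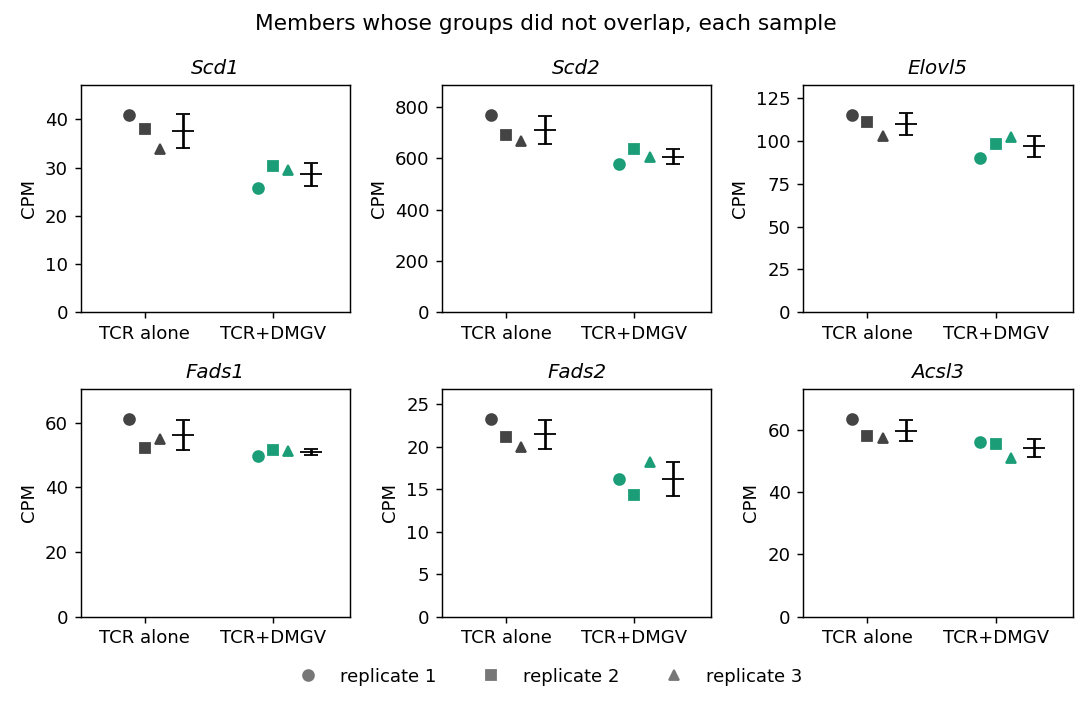
CPM of the 6 genes whose groups did not overlap, with each sample as a point (replicates as circle, square and triangle), and beside each group its mean and SD (n = 3). In all 6 panels the TCR+DMGV points lie below the TCR alone points, by a wide gap for Scd1 and Fads2 and a narrow one for Fads1, Elovl5 and Acsl3.

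The other 2 genes whose groups did not overlap were Elovl5 and Acsl3. Elovl5 (ENSMUSG00000032349.13), the elongase that works on the polyunsaturated chains made by Fads1 and Fads2, had 115, 111 and 103 CPM in TCR alone and 90.2, 98.3 and 102 CPM in TCR+DMGV. Its log2 fold change was -0.18 (standard error 0.08, 95% interval -0.38 to 0.02, unadjusted p = 0.0684, edgeR). Without TCR alone replicate 3 it was -0.22 with an unadjusted p of 0.0390. Acsl3 (ENSMUSG00000032883.15), an acyl-CoA synthetase of lipid droplets and the endoplasmic reticulum, had 63.5, 58.1 and 57.3 CPM in TCR alone and 56.1, 55.4 and 50.8 CPM in TCR+DMGV. The log2 fold change of Acsl3 was -0.14 (standard error 0.09, 95% interval -0.35 to 0.07, unadjusted p = 0.158, edgeR). The groups of Acsl3 overlapped with library size alone, on either FPKM scale, and with a correction for GC content, added after seeing the data. Both intervals printed here include 0. With all 6 samples, Elovl5 was at an unadjusted p of 0.0365 with the GC correction and 0.0467 with library size alone (edgeR). It was at 0.0333 and 0.0356 with limma on log2(FPKM + 1) and log2(FPKM + 0.1). Utp14b lies on the same strand over 5.6% of Acsl3's exon bases, so reads of the 2 genes can be confused there.

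Promoter sequence was at hand for 33 of the 40 genes (RefSeq, GRCm38.p6), and the table holds no entry for Fads1, Scd1, Scd2, Decr1, Mcat, Fabp5 and Acaa2. The 250 bases before the start were searched on both strands for motifs of factors known for lipogenic promoters: CCAAT (the NF-Y box), GGGCGG (the GC box of Sp1), CACGTG (an E box), TCACNCCAC (a core of the sterol regulatory element) and TATAAA. The window of Fads2 lies in its first exon as GENCODE draws it over 243 bases and is not printed. The windows of the other 2 genes without overlap are shown because they differ in make-up, with motif matches in capitals.

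Elovl5: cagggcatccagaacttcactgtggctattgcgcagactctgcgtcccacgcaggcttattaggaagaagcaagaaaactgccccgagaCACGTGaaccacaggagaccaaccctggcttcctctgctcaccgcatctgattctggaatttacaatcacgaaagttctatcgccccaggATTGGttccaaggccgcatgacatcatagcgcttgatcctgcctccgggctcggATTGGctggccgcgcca
Acsl3: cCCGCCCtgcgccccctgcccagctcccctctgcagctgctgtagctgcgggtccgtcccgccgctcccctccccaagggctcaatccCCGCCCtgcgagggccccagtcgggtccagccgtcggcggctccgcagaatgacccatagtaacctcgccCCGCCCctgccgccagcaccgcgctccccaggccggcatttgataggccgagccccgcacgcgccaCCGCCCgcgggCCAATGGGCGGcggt

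The Elovl5 window (chr9:77917115-77917364, forward strand) holds an E box starting 161 bases before the start and 2 CCAAT boxes on the reverse strand, starting 71 and 17 bases before it. The Acsl3 window (chr1:78657575-78657824, forward strand) is 75.6% G and C and holds 5 GC boxes and a CCAAT box that starts 15 bases before the start and abuts the last of them. CCAAT was found in 16 of the 33 windows (48.5%) and in 33.8% of all 32851 promoters of that length. GGGCGG was found in 22 (66.7%) and in 32.7% of all promoters, Fads2's among the 22. The E box was found in 1 of the 33 (Elovl5) against 6.02% of all promoters, and the sterol element core in 1 (Acsl1) against 1.05%. TATAAA was found in 1 (Acacb) against 12.4%. A match describes the letters only.

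The 3 enzymes that make palmitate had lower means in TCR+DMGV. None was at an unadjusted p under 0.05 in edgeR with all 6 samples and no GC correction. Acly had 685, 762 and 744 CPM in TCR alone and 671, 687 and 679 CPM in TCR+DMGV, and only TCR alone replicate 1 fell among the TCR+DMGV samples. For Acly the log2 fold change was -0.10 (standard error 0.07, 95% interval -0.27 to 0.06, unadjusted p = 0.168, edgeR). Without that replicate it was -0.17 with an unadjusted p of 0.0328. The groups of Acly did not overlap with RLE normalization, with library size alone, on either FPKM scale or with the GC correction, with TCR+DMGV lower.

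Fasn had 1281, 1144 and 1308 CPM in TCR alone and 1128, 1199 and 1112 CPM in TCR+DMGV, and the groups overlapped. Its log2 fold change was -0.12 (standard error 0.08, 95% interval -0.30 to 0.06, unadjusted p = 0.168, edgeR). Without TCR alone replicate 2 it was -0.18 with an unadjusted p of 0.0481, with the GC correction (added after seeing the data) it was -0.15 with an unadjusted p of 0.0479, and without the pair of libraries that stood apart it was -0.07. Acaca, the committed step, had 370.0, 353 and 382 CPM in TCR alone and 343, 362 and 329 CPM in TCR+DMGV, with a log2 fold change of -0.10 (standard error 0.07, 95% interval -0.27 to 0.07, unadjusted p = 0.218, edgeR), and -0.06 without the pair that stood apart. As percentages, the lower bounds of the intervals of Acly, Fasn and Acaca were -16.8%, -18.7% and -16.8%.

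Elovl6, which turns palmitate into stearate, varied widely within both groups. It had 87.9, 74.4 and 50.1 CPM in TCR alone and 68.3, 74.3 and 44.1 CPM in TCR+DMGV, so replicate 3 was the lowest in both groups. The log2 fold change was -0.19 (standard error 0.25, 95% interval -0.78 to 0.41, unadjusted p = 0.485, edgeR), and it was -0.45 without the pair of libraries that stood apart and 0.01 without TCR+DMGV replicate 3. The other synthesis genes were Elovl1 at 67.4 to 76.5 CPM, Mcat at 28.7 to 35.7 CPM, Elovl7 at 1.44 to 2.47 CPM and Acacb at 0.532 to 1.32 CPM, and their groups overlapped.

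Over the 13 synthesis genes, 10 were lower in TCR+DMGV, 3 of them at an unadjusted p under 0.05 and 5 without overlap, and none was higher at that p or without overlap. Over all genes tested, 1.56% were lower at that p and 3.94% were lower without overlap. The median log2 fold change was -0.12, against 0.00243 over all genes tested, of which 49.4% were lower. As deviations from the 6-sample mean of each gene, the median synthesis gene was at 0.20, -0.01 and 0.05 in TCR alone and at -0.08, -0.04 and -0.06 in TCR+DMGV on the log2 scale. Every TCR+DMGV sample was below every TCR alone sample, and TCR alone replicate 1 stood farthest out. Without that replicate the median log2 fold change was -0.11.

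Among the activation genes, Acsl4 and Acsl1 were lowest in the libraries that stood apart. Acsl4, which prefers arachidonate and other polyunsaturated acids, had 208, 191 and 113 CPM in TCR alone and 116, 173 and 171 CPM in TCR+DMGV. The 2 low samples are the ones that stood apart on the first component, 1 in each group. The log2 fold change was -0.16 (standard error 0.25, 95% interval -0.74 to 0.43, unadjusted p = 0.551, edgeR). Without both, it was -0.21 with an unadjusted p of 0.0458 (2 samples against 2, where 6.53% of all genes were under that p), and with a correction for GC content, added after seeing the data, it was -0.06.

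Acsl1, the main synthetase of liver and fat, showed the same 2 samples low, with 24.4, 20.9 and 15.1 CPM in TCR alone and 13.9, 23.6 and 20.9 CPM in TCR+DMGV. Its log2 fold change was -0.05 (standard error 0.24, 95% interval -0.62 to 0.52, unadjusted p = 0.847, edgeR), 0.10 without TCR alone replicate 1 and 0.14 without TCR+DMGV replicate 1. Acss2, which makes acetyl-CoA from acetate in cytosol and nucleus, had 14.1, 15.1 and 13.5 CPM in TCR alone and 15.9, 12.7 and 13.7 CPM in TCR+DMGV, a log2 fold change of -0.02 (standard error 0.13, 95% interval -0.31 to 0.28, unadjusted p = 0.900, edgeR), and -0.15 without the pair that stood apart. Acsl5 lay at 343 to 376 CPM and Acss1, the mitochondrial acetate enzyme, at 6.78 to 9.29 CPM. Over the 6 activation genes, 5 were lower, 1 of them (Acsl3) without overlap, where 3.94% of all genes tested were lower without overlap. At an unadjusted p under 0.05 in edgeR there were 0 (adjusted, 0 as well, and 0 by DESeq2), and the median log2 fold change was -0.03. Leaving out TCR alone replicate 3 gave -0.11, and leaving out TCR alone replicate 1 gave -0.02.

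**Figure D3:**
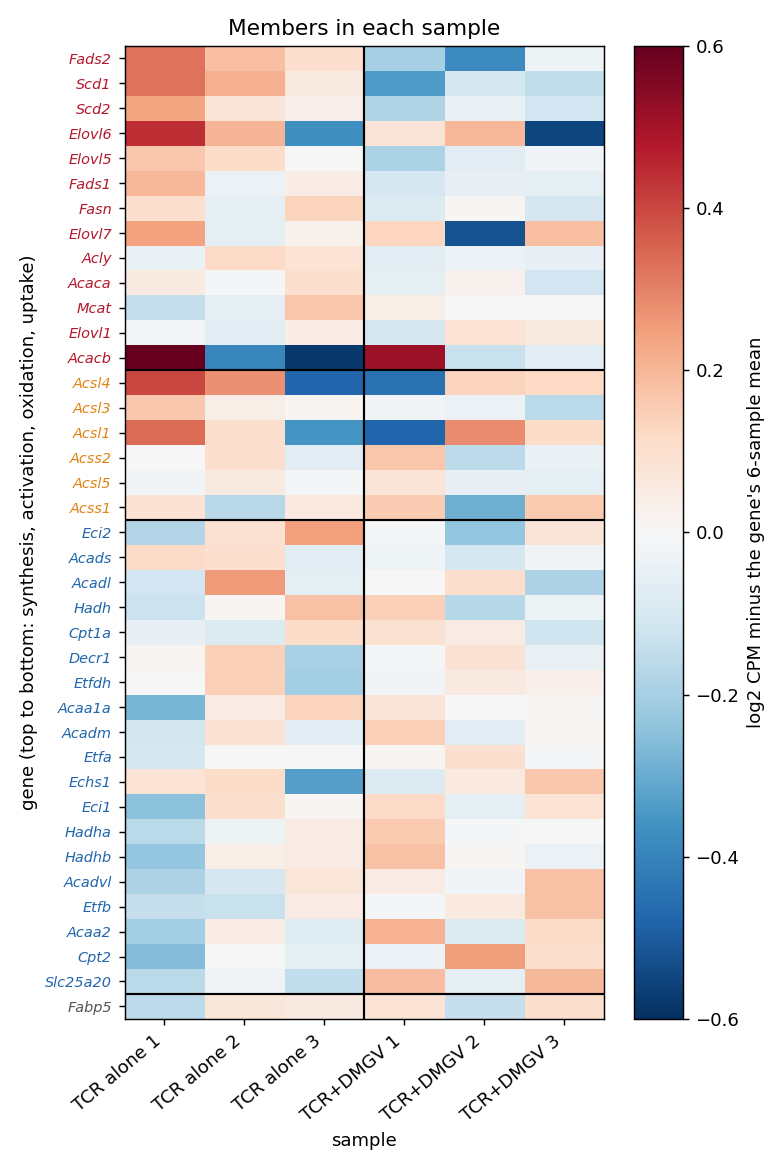
Log2 CPM of the 39 tested genes in each sample as a difference from the gene's 6-sample mean (red higher, blue lower, clipped at 0.6 either way), ordered by role and, within a role, by fold change. The rows at the top run from red in TCR alone to blue in TCR+DMGV, Acsl4 and Acsl1 are blue in TCR alone 3 and TCR+DMGV 1, and the oxidation rows are palest, with TCR alone 1 mostly blue.

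Most oxidation genes had slightly higher means in TCR+DMGV, and none was at an unadjusted p under 0.05 in edgeR with all 6 samples. The carnitine shuttle opens the route. Cpt1a, its rate-limiting enzyme at the outer membrane, had 24.6, 24.0 and 27.4 CPM in TCR alone and 27.1, 26.2 and 23.4 CPM in TCR+DMGV, and the samples of the groups were interleaved. Its log2 fold change was 0.01 (standard error 0.10, 95% interval -0.23 to 0.26, unadjusted p = 0.904, edgeR), or between -14.8% and 19.6% as a percentage.

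Slc25a20, the carrier that exchanges acylcarnitine for carnitine across the inner membrane, had 21.01, 23.2 and 21.2 CPM in TCR alone and 26.7, 22.6 and 26.9 CPM in TCR+DMGV. The overlap came from TCR+DMGV replicate 2 alone, which lay below TCR alone replicate 2. Its log2 fold change of 0.22 (standard error 0.11, 95% interval -0.03 to 0.47, unadjusted p = 0.0782, edgeR) was the largest of the oxidation genes. Without TCR+DMGV replicate 2 it was 0.30 with an unadjusted p of 0.0367, and it was 0.17 without the pair that stood apart.

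Cpt2, which hands the acyl group back to coenzyme A inside, had 15.7, 18.8 and 18.1 CPM in TCR alone and 18.4, 22.4 and 20.2 CPM in TCR+DMGV. Its log2 fold change was 0.21 (standard error 0.12, 95% interval -0.08 to 0.50, unadjusted p = 0.125, edgeR), 0.12 without TCR alone replicate 1 and 0.31 without the pair that stood apart. Its groups overlapped in CPM, but with library size alone and on either FPKM scale every TCR+DMGV sample was higher. The upper bounds of the intervals were 38.9% for Slc25a20 and 41.6% for Cpt2.

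The acyl-CoA dehydrogenases take the first step of each turn, each for its own chain length. Acadvl, for very long chains, had 64.6, 68.3 and 77.2 CPM in TCR alone and 76.0, 72.6 and 82.9 CPM in TCR+DMGV, a log2 fold change of 0.14 (standard error 0.10, 95% interval -0.09 to 0.37, unadjusted p = 0.200, edgeR). A single library moved it either way, to 0.07 without TCR alone replicate 1, 0.09 without TCR+DMGV replicate 3 and 0.22 without TCR alone replicate 3, and it was 0.23 without the pair that stood apart. Dvl2, on the other strand, covers 42.9% of Acadvl's exon bases, and the sources do not state that counting used strand, so its reads cannot be told apart there.

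Acadl, for long chains, had 44.8, 57.9 and 46.6 CPM in TCR alone and 48.5, 52.3 and 42.6 CPM in TCR+DMGV, a log2 fold change of -0.06 (standard error 0.13, 95% interval -0.37 to 0.25, unadjusted p = 0.671, edgeR). Acadm, for medium chains, had 55.9, 64.2 and 57.8 CPM in TCR alone and 66.6, 57.8 and 60.8 CPM in TCR+DMGV, a log2 fold change of 0.06 (standard error 0.10, 95% interval -0.17 to 0.29, unadjusted p = 0.566, edgeR). Acads, for short chains, lay at 33.9 to 39.5 CPM. The 4 dehydrogenases thus showed no shared direction, and the groups overlapped for each.

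Hadha and Hadhb are the 2 subunits of the trifunctional protein, which carries out the later steps on long chains, and they share a promoter region. Hadha had 156, 171 and 180.5 CPM in TCR alone and 194, 173 and 174 CPM in TCR+DMGV, and Hadhb had 62.6, 75.4 and 75.9 CPM in TCR alone and 82.9, 73.9 and 71.6 CPM in TCR+DMGV. Both were lowest in TCR alone replicate 1 and highest in TCR+DMGV replicate 1. Their log2 fold changes were 0.09 (standard error 0.09, 95% interval -0.11 to 0.30, unadjusted p = 0.318, edgeR) and 0.10 (standard error 0.11, 95% interval -0.16 to 0.35, unadjusted p = 0.409, edgeR). Without TCR alone replicate 1 they were 0.02 and -0.0071, and without TCR+DMGV replicate 1 they were both 0.03.

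Etfdh, which passes the electrons of all these dehydrogenases to ubiquinone, had 40.4, 44.5 and 35.0 CPM in TCR alone and 39.9, 41.9 and 41.3 CPM in TCR+DMGV, with a log2 fold change of 0.04 (standard error 0.11, 95% interval -0.22 to 0.29, unadjusted p = 0.747, edgeR). The electron carrier subunits lay at 74.8 to 86.0 CPM (Etfa) and 41.2 to 51.2 CPM (Etfb). The enzymes for short chains, isomers and thiolysis (Hadh, Echs1, Acaa1a, Acaa2, Eci1, Eci2, Decr1) lay between 16.6 and 69.7 CPM, and their groups overlapped. Acaa1a has a near copy, Acaa1b (24 to 52 counts against 1046 to 1565), and Myd88 lies opposite 6.6% of its exon bases.

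Over the 19 oxidation genes, 15 were higher in TCR+DMGV and 4 lower, with 0 at an unadjusted p under 0.05 in edgeR or DESeq2. None was without overlap in CPM, though Cpt2 was with library size alone and on either FPKM scale. Their log2 fold changes ran from -0.11 (Eci2) to 0.22, with a median of 0.07 against 0.00243 over all genes. The median gene deviated by -0.14, 0.04 and -0.0037 in TCR alone and by 0.05, 0.0032 and 0.01 in TCR+DMGV on the log2 scale, so the groups overlapped and TCR alone replicate 1 was the lowest sample. Without that replicate the median was 0.01, so 1 library set most of this value.

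Of the uptake genes, Fabp5 had 89.6, 105 and 104 CPM in TCR alone and 106, 90.8 and 107 CPM in TCR+DMGV, a log2 fold change of 0.03 (standard error 0.10, 95% interval -0.21 to 0.27, unadjusted p = 0.798, edgeR). Cd36 was too low to compare.

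**Figure D4:**
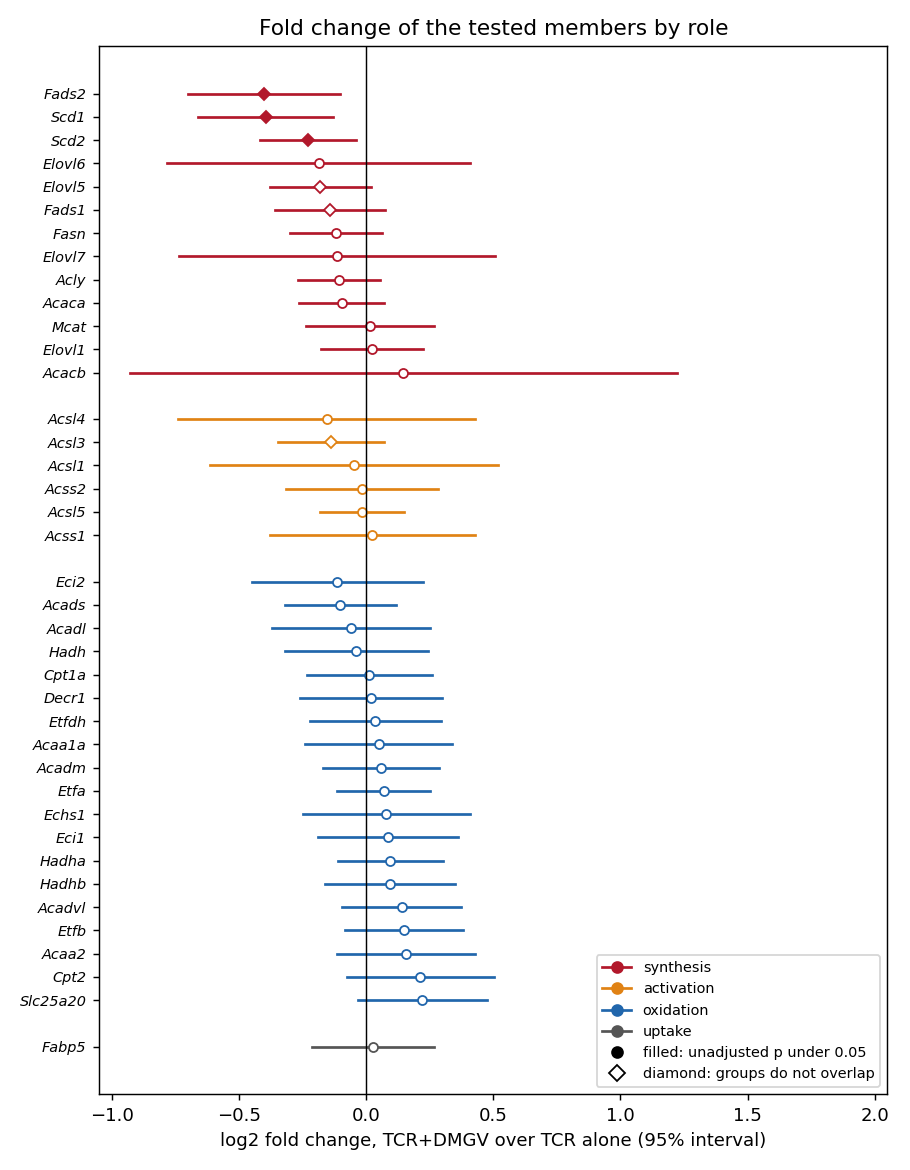
Log2 fold change of each tested gene (TCR+DMGV over TCR alone) with its 95% interval from edgeR, coloured by role (filled, unadjusted p under 0.05, and diamonds, groups that do not overlap). Only the intervals of Fads2, Scd1 and Scd2 lie wholly below 0, 10 of the 13 synthesis points are left of 0, and 15 of the 19 oxidation points are right of it, and the interval of every oxidation gene includes 0.

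Leaving out TCR alone replicate 3 and TCR+DMGV replicate 1 together left 2 samples against 2. In the samples left, the GC slope went with the group, so this fit cannot tell the GC trend from the agent. Scd1, Scd2 and Fads2 had log2 fold changes of -0.39, -0.23 and -0.45 (unadjusted p = 0.0108, 0.0340 and 0.0328, edgeR), and with Acsl4 they were the 4 genes at an unadjusted p under 0.05. The synthesis median was -0.17, the activation median -0.11 and the oxidation median 0.08. Of the oxidation genes, 12 were then higher and 7 lower, against 15 and 4 with all samples, and the log2 fold changes of Acadl, Acadm and Etfdh were -0.11, -0.02 and -0.03. The groups then did not overlap for 17 of the 39 genes, 11 lower and 6 higher, where 38.7% of all genes tested did not overlap. The 11 lower ones were 6 synthesis, 4 activation and 1 oxidation gene, and the 6 higher ones were 2 synthesis and 4 oxidation genes, where 19.1% of all genes tested were lower and 19.6% higher without overlap.

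**Figure D5:**
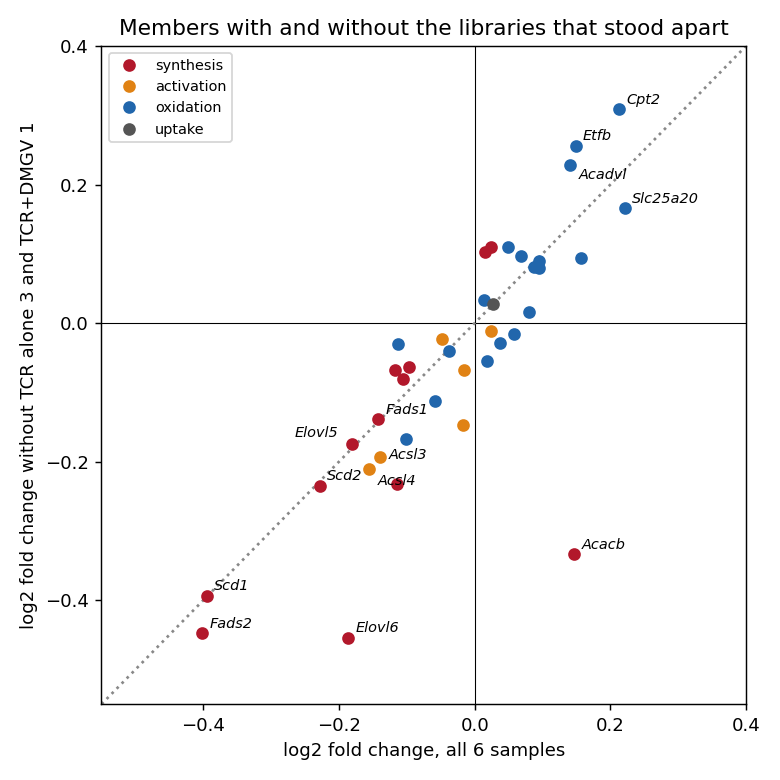
Log2 fold change of the tested genes from all 6 samples (horizontal) and from the 4 samples left without TCR alone 3 and TCR+DMGV 1 (vertical), coloured by role, with the dotted line of equal values. Scd1, Scd2, Fads1 and Elovl5 lie close to the line, Elovl6 moves from -0.19 to -0.45, and Acacb, with 22 to 53 counts per sample, changes sign.

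The transcript table showed whether a gene's counts came from 1 isoform (share of the gene's counts). For 26 of the 39 genes, 1 transcript held over 90% of the counts on average. Scd1, Scd2, Fads1, Fads2, Elovl5 and Cpt1a each had 1 transcript with at least 99.2% of the counts in every sample. In others the assignment jumped between samples of 1 group.

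Acly-207, a protein-coding isoform, held 7.70%, 83.4% and 82.2% of Acly's reads in TCR alone, as against 84.8%, 18.8% and 85.8% in TCR+DMGV. Acsl1-203 held 79.1% of Acsl1's counts in TCR alone replicate 2 and 0% in the other 5 samples. Etfb-201 held 99.3% of Etfb's counts in TCR alone replicate 2 and 29.1% to 42.5% elsewhere. These jumps followed single libraries and not the groups, while the gene totals did not jump (685 to 762 CPM for Acly in TCR alone). Hadhb-202 held 8.75%, 11.9% and 25.5% in TCR alone and 4.36%, 46.5% and 50.6% in TCR+DMGV, and the groups overlapped.

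Other genes of lipid metabolism were read from 5 lists of 123 genes. Of 26 lipid regulators (sterol, LXR, PPAR and AMPK genes among them), 19 were tested, 13 were higher, and 2 were at an unadjusted p under 0.05, both higher. Over all genes tested, 3.19% were at that p and 1.63% were higher at it, which is the background for this list and those that follow. Nr1h2, the gene of LXR beta, a sterol-sensing factor that can switch on lipogenic genes, had 40.5, 44.4 and 53.8 CPM in TCR alone and 82.9, 50.3 and 65.0 CPM in TCR+DMGV, with an overlap at TCR alone replicate 3 (log2 fold change 0.52, standard error 0.19, unadjusted p = 0.0321, edgeR). Prkab1, a regulatory subunit of AMPK, the kinase that inhibits acetyl-CoA carboxylase, had 35.8, 34.7 and 38.2 CPM in TCR alone and 43.4, 40.3 and 42.6 CPM in TCR+DMGV without overlap (log2 fold change 0.22, standard error 0.09, unadjusted p = 0.0411, edgeR). Neither passed the adjusted threshold, and the list's median was 0.06. Without the pair of libraries that stood apart, the unadjusted p in edgeR was 0.0226 for Nr1h2 and 0.0653 for Prkab1. Among the sterol genes, Srebf1, Srebf2 and Scap had log2 fold changes of -0.01, 0.03 and 0.02 (unadjusted p = 0.909, 0.690 and 0.818, edgeR). The AMPK genes Prkaa1, Prkab2 and Prkag1 were at -0.06, 0.10 and 0.07, with overlap. Without overlap, Insig1 was lower (-0.06, unadjusted p = 0.408, edgeR) and Prkab1 higher, where 3.94% of all genes tested were lower and 4.92% higher.

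Of 26 further synthesis and elongation genes (25 matched), 21 were tested, 11 lower and 10 higher (median -0.01). Tecr, the reductase that ends each round of elongation, had 84.4, 97.7 and 89.7 CPM in TCR alone and 77.2, 77.7 and 72.6 CPM in TCR+DMGV (log2 fold change -0.26, standard error 0.09, unadjusted p = 0.0192, edgeR). Idh1, a cytosolic source of NADPH, had 5.29, 3.97 and 4.35 against 3.08, 3.00 and 3.23 CPM (log2 fold change -0.55, standard error 0.18, unadjusted p = 0.0181, edgeR). Mecr, of mitochondrial fatty acid synthesis, had 28.6, 27.1 and 24.4 against 32.6, 30.2 and 31.8 CPM (log2 fold change 0.24, standard error 0.10, unadjusted p = 0.0427, edgeR). The groups of all 3 did not overlap. In the whole list 5 genes did not overlap, 3 lower and 2 higher in TCR+DMGV, where 8.86% of all genes tested did not. Without the pair that stood apart, the unadjusted p in edgeR was 0.0429 for Tecr, 0.0616 for Idh1 and 0.215 for Mecr, whose log2 fold change was then 0.16.

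Of 31 uptake, storage and release genes, 26 were tested and 16 were lower (median -0.04). Lpin1 and Lpin2 encode phosphatidate phosphatases that make diacylglycerol for triglyceride. Lpin1 had 26.3, 23.8 and 25.1 CPM in TCR alone and 20.0, 17.5 and 21.1 CPM in TCR+DMGV (log2 fold change -0.36, standard error 0.11, unadjusted p = 0.0117, edgeR), and Lpin2 had 18.9, 22.3 and 21.5 against 19.0, 13.8 and 16.3 CPM (log2 fold change -0.36, standard error 0.14, unadjusted p = 0.0411, edgeR). Lpin1's groups did not overlap and Lpin2's did, and without the pair that stood apart the unadjusted p in edgeR was 0.0418 and 0.0275.

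Of 20 further mitochondrial oxidation genes, 18 were tested, 9 in each direction (median -0.02). Pdk2, a kinase that shuts pyruvate dehydrogenase, had 4.29, 4.36 and 6.09 CPM in TCR alone and 3.30, 3.58 and 2.67 CPM in TCR+DMGV (log2 fold change -0.62, standard error 0.22, unadjusted p = 0.0224, edgeR). Without the pair that stood apart it was -0.47 with an unadjusted p of 0.109. Of 20 peroxisomal oxidation genes, 17 were tested and 0 were at an unadjusted p under 0.05 in edgeR, with 10 lower, 7 higher and a median of -0.01. None of the genes of the 5 lists passed an adjusted p of 0.05.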

How the data were processed

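Splenic CD3+ T cells of 6 samples were sequenced as mRNA libraries (Illumina Xten). The authors removed adapter and low-quality reads with SOAPnuke 1.5.2, aligned the rest with HISAT2 2.0.4, computed expression levels with StringTie 1.2.3, and deposited counts and FPKM per gene and per transcript. The deposited counts are whole reads per gene, not normalized, and the authors scaled FPKM by transcript length and by depth. The counting step and its use of strand are not given in the sources used here. The submitters' processing notes name mm9, but 99.7% of the gene identifiers match GENCODE M21 (GRCm38), whose coordinates are used. Total counts were 37758725 to 43718867 per sample, above the read depth the labels state. Counts were fitted with edgeR 4.0.16 (quasi-likelihood, TMM, filterByExpr, no covariate) in R 4.3.3, with Benjamini-Hochberg adjustment over 14786 genes. The fit was run beforehand on simulated counts. Their changed genes moved more than any member here and they held no GC trend, so that run does not cover data such as these. Fold changes are TCR+DMGV over TCR alone. Alternatives were other normalizations, no filter, DESeq2 1.42.0, limma 3.58.1 on log2(FPKM + 1) and log2(FPKM + 0.1), summed transcript counts, a replicate block, and leaving out each sample. A GC correction, alone and with the block, the removal of the pair of libraries that stood apart, and TPM as a level were also tried, all chosen after seeing the data. Members and lists were chosen with earlier results of these data known. Fold changes with errors are given for enzymes fixed for their role, and for genes at an unadjusted p under 0.05 or without overlap. From the other lists, genes at that p are named. Further lipid regulators and desaturase-family genes of those lists were added after their values were seen. Transcript FPKM were not used.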

Additional observations from a re-analysis of the deposited data

How the results depend on the processing

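None of the 39 tested genes passed the adjusted threshold in any of the 18 analyses. Of the 23 genes given with a fold change, 13 kept 1 sign in all 17 alternatives (9 lower, 4 higher) and 10 changed sign in at least 1. The count of all genes past the threshold, 2 as reported, was 1 with library size alone and with all genes that had a count, 14 with DESeq2, 0 with limma on either FPKM scale, 0 to 5 with 1 sample left out (5 without TCR+DMGV replicate 1), and 12 without TCR alone replicate 3 and TCR+DMGV replicate 1 together. The cause was not tested.

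Same-numbered samples correlated at -0.15, 0.12 and -0.15 in their deviations from the group means. TCR alone replicate 3 and TCR+DMGV replicate 1, the libraries that stood apart, correlated at 0.31. These values cannot settle whether the replicate numbers pair the samples, since that pair of libraries weighs on deviations taken within groups of 3. With the replicate number as a block, 0 of all genes passed the threshold, also with the GC correction, and 2 of the 39 genes (Scd1 and Fads2) were at an unadjusted p under 0.05, with Scd2 at 0.0660. Under the block, genes at that p numbered 0 of the lipid regulators and of the further mitochondrial oxidation genes (2 and 1 without it), 2 of the further synthesis genes (3 without it) and 1 of the uptake, storage and release genes (2 without it).

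Genes at an unadjusted p under 0.05 numbered 5 with the GC correction (Elovl5 and Fasn joined the 3), where 3.9% of all genes were, and 2 to 4 with 1 sample left out, where 2.42% to 7.3% of all genes were (7.3% without TCR alone replicate 3). Genes whose groups did not overlap numbered 7 to 13 with 1 sample left out, where 15.9% to 28.4% of all genes did not, and 17 without both libraries, where 38.7% did not, where smaller groups overlap less often by construction. The activation median ranged from -0.11 to -0.022 with 1 sample left out and was -0.11 without both libraries. With 1 sample left out, log2 fold changes ranged from -0.38 to 0.011 for Elovl6, -0.21 to 0.14 for Acsl1, -0.37 to 0.010 for Acsl4, -0.11 to 0.055 for Acss2, -0.034 to 0.080 for Cpt1a, -0.14 to 0.0605 for Acadl, -0.0026 to 0.12 for Acadm, -0.0071 to 0.15 for Hadhb, -0.045 to 0.12 for Etfdh and -0.059 to 0.10 for Fabp5. Without both libraries Acadm was at -0.016 and Etfdh at -0.029. Cpt1a was at -0.00093 with library size alone, -0.0027 and -0.0032 with limma on log2(FPKM + 1) and log2(FPKM + 0.1), -0.0067 with the GC correction and -0.0077 with the GC correction and the block. With 3 samples a group, the intervals printed above limit what could be seen for single genes.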
